A study of Rattus norvegicus with 12 samples.

Results

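The cadherins and protocadherins on the rat array were taken as the probe sets whose only gene symbol in the array annotation starts with Cdh and a digit or with Pcdh. The rule found 46 of 31042 probe sets tested, for 33 of the 14217 genes that have a probe set with 1 symbol. Of these, 18 probe sets (12 genes) were for classical cadherins, 22 (17 genes) for protocadherins and 6 (4 genes) for cadherins of other kinds. The lists of classes were drawn up by hand from the gene names. A further 4 probe sets carried several protocadherin symbols each and were kept apart from the members.

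RNA was compared between Colony and A16 cells of F111, a single established fibroblast line of the Fischer rat that the authors describe as normal. Its karyotype was not normal, as the authors saw chromosome translocations in A16 and in Colony cells. A translocation between copies of chromosome 2 was in a minority of A16 cells and in all Colony cells they examined. The groups thus differ in karyotype too, and its part in the changes was not tested. Colony cells were F111 cells that had been kept without adhesion for 16 h (NA16 cells), placed in soft agar for 7 days, freed from the agar and let attach briefly, and the attached cells were used. A16 cells were the same line grown on plastic for 16 h, and served as reference. Each group had 3 arrays, named here replicate 1, technical replicate 2 and replicate 2. The labels do not say from which culture technical replicate 2 came, and it was assumed to belong to replicate 1. Technical replicate 2 was averaged on the log2 scale with replicate 1, which left n = 2 cultures per group. The labels of Colony replicate 2 disagree, as 1 of them speaks of tumour formation and the rest of colonies, and the sample was used as a Colony sample. The sources used here do not say how far the cultures were separate, so the p-values measure the spread between these samples, which may be partly technical. The cells were measured in bulk, in which fewer cells of a type and less RNA per cell cannot be told apart.

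Cadherins are calcium-dependent adhesion proteins of the cell surface. Classical cadherins bind the same cadherin on the next cell, and their tails hold beta-catenin and p120-catenin. Of these, beta-catenin links the junction to actin through alpha-catenin. Type I members include E-cadherin (Cdh1) of epithelia, N-cadherin (Cdh2) of neural and mesenchymal cells and P-cadherin (Cdh3). Type II members include Cdh11, the cadherin best known from mesenchyme and bone. Protocadherins have more distant ectodomains and tails without the catenin sites of classical cadherins; most are known from the nervous system. Delta protocadherins are encoded by separate genes, and clustered protocadherins by the neighbouring genes of the Pcdha, Pcdhb and Pcdhg arrays.

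The largest changes among the members lay in both classes and ran in different directions. Pcdh9 was higher in Colony cells than in A16 cells, by 40.1-fold on its brightest probe set and 3.53-fold on the other, and Cdh2 was lower on 2 of its 3 probe sets, by 15-fold and 22.1-fold. The dimmer group of these probe sets lay low on the arrays, and no detection call was used, so that the size of such a fold change is uncertain. A member probe set was called when limma gave an adjusted p under 0.05 (Benjamini-Hochberg over all 31042 probe sets) and the fold change was over 2. Of the 46 member probe sets, 5 were called higher and 4 lower in Colony cells, 19.6% in all; 4.0% of all tested probe sets were called higher and 5.81% lower, 9.81% in all. The called probe sets belonged to 7 genes. Cdh17, Pcdh9, Pcdh18 and Pcdhb22 were called higher, and Cdh2, Cdh3 and Pcdh10 lower. By the brightest probe set of each gene 4 member genes were called higher and 3 lower, 21.2% in all, against 4.36% higher and 4.75% lower, 9.12% in all, of the genes with 1 symbol. At any fold change 15 of 46 member probe sets had an adjusted p under 0.05, against 22.7% of all probe sets. On 22 of 46 the Colony arrays all lay on 1 side of the A16 arrays, a share of members close to the 45.9% of all probe sets. The 9 called member probe sets were among them, with RMA and with PLIER, the second summary deposited for each array.

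The promoters of 3 of the called genes, all delta protocadherins, are printed to show the base composition in front of genes that moved in both directions. They were taken from RefSeq (assembly GRCr8) as the 250 bases before the annotated start, 5′ to 3′ on the strand of the gene, with CpG dinucleotides in capitals. Pcdh9 lies on the minus strand (chr15:76643953-76644202), Pcdh18 on the minus strand (chr2:135996827-135997076) and Pcdh10 on the plus strand (chr2:130553188-130553437).
Pcdh9: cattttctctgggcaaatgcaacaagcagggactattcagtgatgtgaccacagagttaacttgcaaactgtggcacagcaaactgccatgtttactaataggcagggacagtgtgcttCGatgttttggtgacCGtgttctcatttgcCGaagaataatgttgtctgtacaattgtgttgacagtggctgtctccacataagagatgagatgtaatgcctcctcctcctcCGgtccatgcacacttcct
Pcdh18: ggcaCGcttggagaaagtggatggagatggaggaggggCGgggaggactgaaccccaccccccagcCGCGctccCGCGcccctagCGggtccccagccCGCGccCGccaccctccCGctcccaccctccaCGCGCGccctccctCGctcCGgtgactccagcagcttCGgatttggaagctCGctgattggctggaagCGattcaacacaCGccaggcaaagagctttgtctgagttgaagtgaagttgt
Pcdh10: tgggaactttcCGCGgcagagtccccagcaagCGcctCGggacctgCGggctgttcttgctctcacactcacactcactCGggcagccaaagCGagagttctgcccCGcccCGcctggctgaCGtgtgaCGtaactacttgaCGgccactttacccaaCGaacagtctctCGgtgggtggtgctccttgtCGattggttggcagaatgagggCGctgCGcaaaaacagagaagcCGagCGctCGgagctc
The Pcdh9 sequence held 4 CpG dinucleotides and 46.0% G and C, and those of Pcdh18 and Pcdh10 held 20 CpG each with 66.0% and 61.2% G and C. Over 33465 promoters of the same length the median was 5 CpG, with quartiles of 2 and 15. Pcdh18, which was higher in Colony cells, and Pcdh10, which was lower, therefore had the same number of CpG. Each of these also had 1 GC box (GGGCGG or CCGCCC), as 30.5% of all promoters had at least 1, and Pcdh9 had none. RefSeq promoters matched 21 of the 33 member genes, and 6 of the 21 held a GC box. No promoter was matched, and none was searched, for Cdh1, Cdh2, Cdh3, Cdh11, Cdh13, Cdh16, Cdh17, Pcdh19, Pcdha12, Pcdha13, Pcdhb17 and Pcdhb22. The E-box CACCTG or CAGGTG, the letters bound by repressors of the Snail and Zeb families, was present in 1 of the 21 matched genes (Pcdh15) against 15.9% of all promoters.

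**Figure D1:**
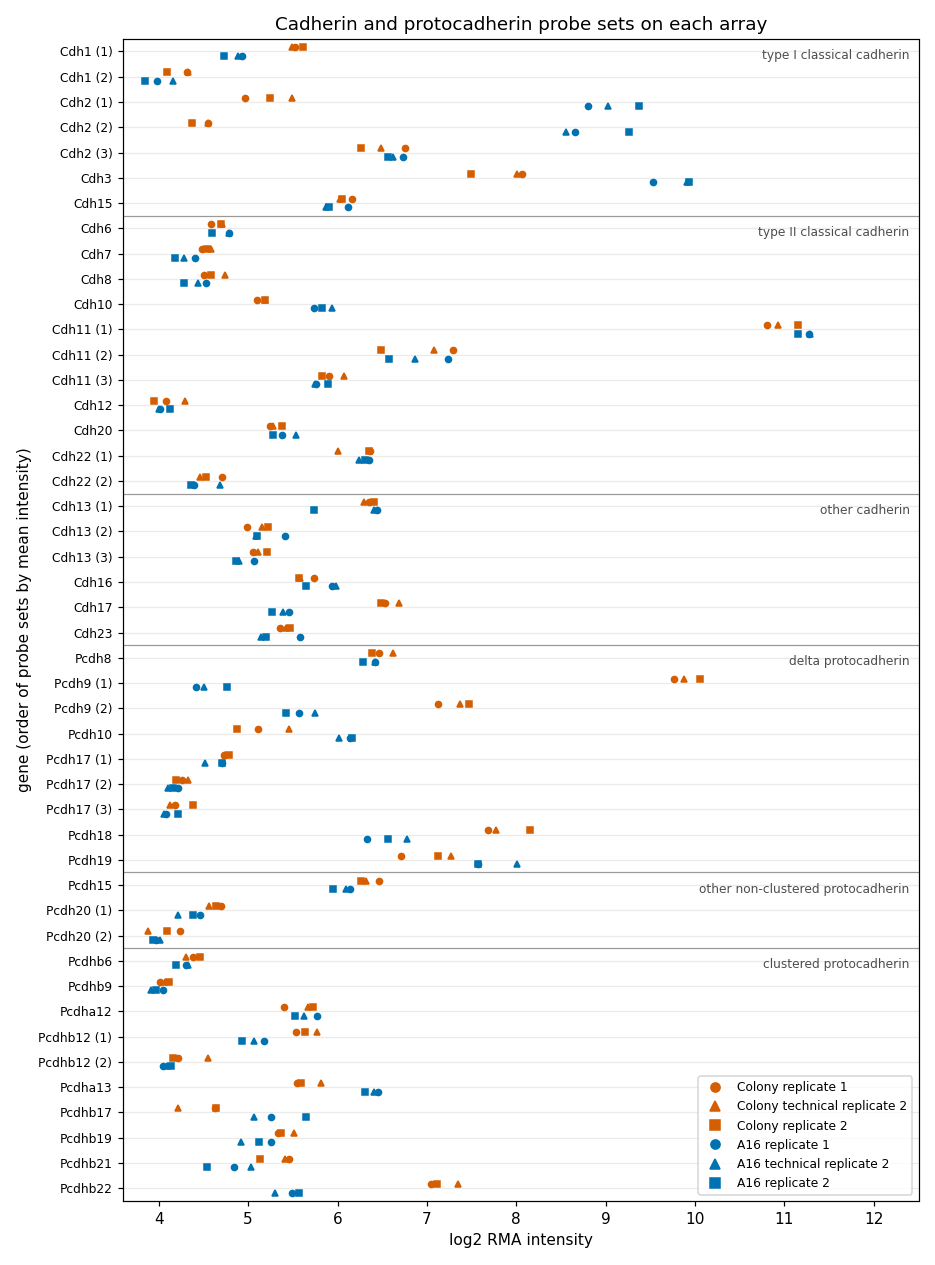
Log2 RMA intensity (x axis) of the 46 member probe sets (y axis, by class; numbers order the probe sets of a gene by mean intensity) on each Colony array (orange) and A16 array (blue). Cdh2 (1) and (2), Cdh3 and Pcdh9 (1) have their Colony and A16 arrays widely separated and Cdh2 (3) has not, while most other members lie close together at low intensity.

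Most members were dim. On 39 of 46 member probe sets the mean log2 RMA intensity lay below the median of all probe sets. RMA intensity is a linear brightness, and it does not rank different probe sets by transcript number. By the mean over the arrays of both groups the brightest member genes were Cdh11, Cdh3 and Pcdh19. Within a group the order differed. In Colony cells Pcdh9 (log2 mean 9.94) and Pcdh18 (7.94) were above Pcdh19 (7.06), and in A16 cells Cdh2 (9.14) was above Pcdh19 (7.68). Intensity medians of the arrays were 97.6 to 101, as RMA sets the arrays to a common scale.

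Among type I cadherins, N-cadherin was the most changed. Cdh2 probe set 1387259_at had RMA intensities of 31.1, 45.1 and 38.0 on the Colony arrays (replicate 1, technical replicate 2 and replicate 2, the order used throughout), against 446, 522 and 664 on the A16 arrays. Every Colony value was far below every A16 value, and the log2 means were 5.24 ± 0.01 in Colony cells and 9.14 ± 0.33 in A16 cells (SD, n = 2 cultures each). The log2 fold change was -3.91 (SE 0.18, limma adjusted p = 3.56e-05), and the fold change was 23.6 with PLIER. In the distribution of all probe sets the Colony mean stood at percentile 22.7 and the A16 mean at percentile 77.0. Cdh2 probe set 1368642_at gave the same direction, with 23.4, 23.5 and 20.7 on the Colony arrays and 402, 375 and 612 on the A16 arrays. Its RMA intensity was 22.1-fold lower in Colony cells (log2 fold change -4.47, SE 0.22, limma adjusted p = 5.03e-05). Its Colony mean stood at percentile 6.28, and the fold change was 33.7 with PLIER and 18.8 with PLIER after adding 16.

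The remaining Cdh2 probe set was not called. Cdh2 1378271_at had 108, 89.9 and 77.0 in Colony cells and 106, 98.6 and 94.5 in A16 cells, and the groups overlapped. Its log2 fold change was -0.18 (SE 0.16, limma adjusted p = 0.513), with a 95% interval of -0.56 to 0.21. The mean of log2 values over the Cdh2 probe sets still had a log2 fold change of -2.85 (SE 0.15, limma adjusted p = 4.94e-06). The array annotation gives all 3 probe sets to Cdh2, and where each lies in the transcript was not analysed here.

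P-cadherin was lower in Colony cells as well. Cdh3 (1373089_at) had 267, 257 and 180 on the Colony arrays and 737, 965 and 979 on the A16 arrays, with no overlap. It was 4.19-fold lower (log2 means 7.76 ± 0.38 in Colony cells and 9.83 ± 0.15 in A16 cells, SD, n = 2 each; log2 fold change -2.07, SE 0.20, limma adjusted p = 0.000767). E-cadherin passed the p threshold in the other direction but not the fold threshold. Cdh1 (1386947_at) had 46.1, 44.9 and 49.0 in Colony cells and 30.6, 29.6 and 26.5 in A16 cells, all dim. Its ratio was 1.67 (log2 fold change 0.74, 95% interval 0.41 to 1.07, limma adjusted p = 0.00979). A second Cdh1 probe set, 1386446_at, had a log2 fold change of 0.25 (SE 0.15, limma adjusted p = 0.314) and overlapping groups. In the GRCr8 gene order Cdh3 and Cdh1 are direct neighbours on chromosome 19, with 0 protein-coding genes between them. Cdh15, the cadherin of skeletal muscle precursors, had a log2 fold change of 0.12 (limma adjusted p = 0.568).

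**Figure D2:**
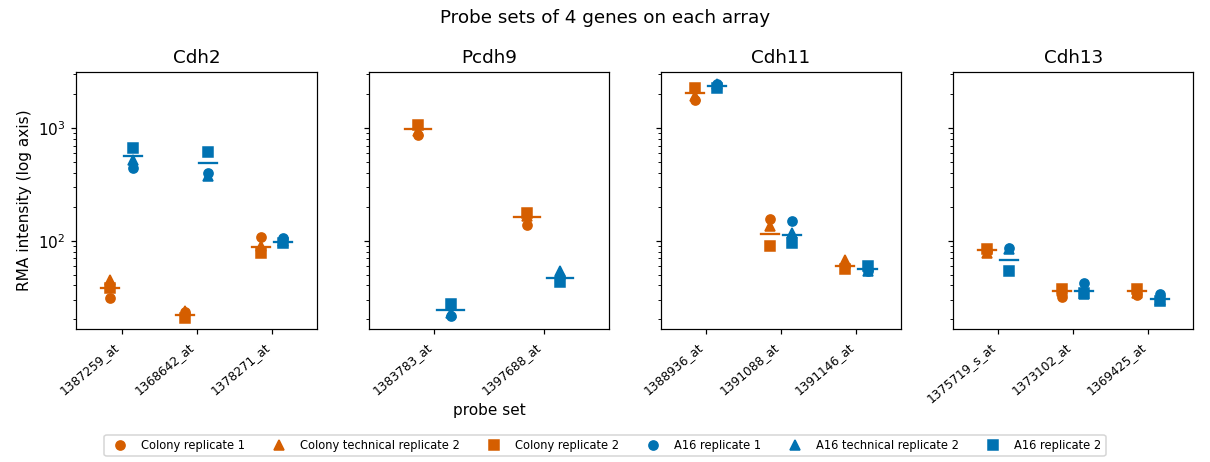
RMA intensity (log axis) of every probe set (x axis) of Cdh2, Pcdh9, Cdh11 and Cdh13 on Colony arrays (orange) and A16 arrays (blue), with each horizontal line at the geometric mean of the 2 cultures. Probe sets 1387259_at and 1368642_at of Cdh2 separate the groups and 1378271_at does not; both Pcdh9 probe sets separate them, and those of Cdh11 and Cdh13 overlap.

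Type II cadherins gave no call: 0 of 11 probe sets (8 genes) passed both thresholds, against 9.81% of all probe sets. Their log2 fold changes were -0.67 to 0.28. By limma 1 of 11 had a p under 0.05 before and after adjustment, against 22.7% of all probe sets after adjustment. Cdh11 was the brightest of all members. Its probe set 1388936_at had 1790, 1950 and 2280 in Colony cells and 2470, 2490 and 2270 in A16 cells. The groups overlapped at Colony replicate 2, and the log2 fold change was -0.20 (SE 0.15, 95% interval -0.56 to 0.16, limma adjusted p = 0.421). The other Cdh11 probe sets had log2 fold changes of 0.02 (limma adjusted p = 0.975) and 0.08 (0.741). Cdh10, a cadherin of the nervous system, was the only type II member past the p threshold. It had 34.2, 36.5 and 36.4 in Colony cells and 53.5, 61.3 and 56.8 in A16 cells, with a log2 fold change of -0.67 (SE 0.13, limma adjusted p = 0.0102). With PLIER its direction turned, to 0.22 or 0.17 after adding 16, and the groups overlapped, so that no direction was taken for Cdh10. The remaining type II genes, Cdh6, Cdh7, Cdh8, Cdh12, Cdh20 and Cdh22, had log2 fold changes of -0.04 to 0.28 with RMA, and Cdh6 had -0.60 with PLIER. Cdh5, the cadherin of endothelium, was not analysed here.

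Of the 4 cadherins outside the classical types, Cdh17 was called. Cdh17 is the LI-cadherin of intestine and, in the rat, of liver; it lacks the catenin-binding tail. Its probe set 1369224_at had 92.3, 103 and 89.3 in Colony cells and 44.0, 41.8 and 38.5 in A16 cells. The groups did not overlap, and it was 2.3-fold higher in Colony cells (log2 means 6.54 ± 0.09 in Colony cells and 5.34 ± 0.11 in A16 cells, SD, n = 2 each; log2 fold change 1.20, SE 0.14, limma adjusted p = 0.0014). Adding 16 to the RMA intensities brought it under the fold threshold, to 0.95 on the log2 scale. T-cadherin (Cdh13), which is held in the membrane by a lipid anchor, had 81.5, 78.5 and 84.9 in Colony cells and 86.9, 84.7 and 53.4 in A16 cells on its brightest probe set. A16 replicate 2 lay apart from the other A16 arrays, and the log2 fold change was 0.28 with a 95% interval of -0.25 to 0.82 (limma adjusted p = 0.444). The other Cdh13 probe sets gave -0.03 and 0.23. Cdh16, the kidney cadherin, and Cdh23, a cadherin of the hair cell tip link, had log2 fold changes of -0.19 and 0.14.

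Delta protocadherins held most of the called protocadherin probe sets, with 3 higher and 1 lower of 9 (44.4% in all, against 9.81% of all probe sets). Pcdh9 is a delta protocadherin known mainly from the brain. Its probe set 1383783_at had 872, 942 and 1060 on the Colony arrays, against 21.3, 22.7 and 27.1 on the A16 arrays. The log2 means were 9.94 ± 0.16 in Colony cells and 4.61 ± 0.22 in A16 cells (SD, n = 2 each), with a log2 fold change of 5.33 (SE 0.16, limma adjusted p = 1.34e-05). The Colony mean stood at percentile 85.9 of all probe sets and the A16 mean at percentile 8.75. The second probe set, 1397688_at, differed in the same direction by less, with 139, 166 and 177 in Colony cells and 47.3, 53.7 and 42.8 in A16 cells. It was 3.53-fold higher in Colony cells (log2 fold change 1.82, SE 0.15, limma adjusted p = 0.000411). With PLIER the fold change was 36.4 for 1383783_at, or 21.8 after adding 16, and 5.61 for 1397688_at.

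Pcdh18 was also higher in Colony cells. It had 206, 218 and 285 in Colony cells and 80.6, 110 and 94.6 in A16 cells, with no overlap. The difference was 2.6-fold (log2 means 7.94 ± 0.30 in Colony cells and 6.56 ± 0.00 in A16 cells, SD, n = 2 each; log2 fold change 1.38, SE 0.17, limma adjusted p = 0.002). Pcdh10, whose protein is known to recruit actin regulators, was lower. It had 34.5, 43.8 and 29.4 in Colony cells and 70.7, 64.7 and 71.6 in A16 cells. The groups did not overlap, but the 2.06-fold difference was just past the threshold (log2 means 5.08 ± 0.28 in Colony cells and 6.12 ± 0.06 in A16 cells, SD, n = 2 each; log2 fold change -1.04, SE 0.17, limma adjusted p = 0.00563). Without Colony replicate 2 it was -0.84 and no longer called. Pcdh19, a gene mutated in a human epilepsy, had 105, 154 and 139 in Colony cells and 190, 258 and 190 in A16 cells. It passed the p threshold and not the fold threshold (log2 fold change -0.62, SE 0.14, limma adjusted p = 0.022). Pcdh8 and the 3 probe sets of Pcdh17 had log2 fold changes of 0.09 to 0.13 with RMA, while with PLIER Pcdh8 had -0.23 and 1 probe set of Pcdh17 was called lower (-1.56). Pcdh15, the partner of Cdh23 in the tip link, and Pcdh20 had 0.29 and, for the probe sets of Pcdh20, 0.27 and 0.11.

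On chromosome 15 the order of protocadherin genes is Pcdh8, Pcdh17, Pcdh20 and Pcdh9. By their brightest probe sets Pcdh8, Pcdh17 and Pcdh20 had like log2 fold changes of 0.11, 0.10 and 0.27, with 3 protein-coding genes between each pair. Pcdh9, with 1 protein-coding gene between it and Pcdh20, had 5.33. On chromosome 2, Pcdh10 and Pcdh18 lie with 18 protein-coding genes between them and changed in opposite directions.

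Clustered protocadherins had 1 called probe set of 10 (9 genes), or 10.0%, a share close to the 9.81% of all probe sets. Their median log2 fold change was 0.16. Pcdhb22 (1392002_at) had 132, 163 and 138 in Colony cells and 45.1, 39.5 and 47.6 in A16 cells, without overlap. It was 3.17-fold higher in Colony cells (log2 means 7.15 ± 0.06 in Colony cells and 5.49 ± 0.12 in A16 cells, SD, n = 2 each; log2 fold change 1.67, SE 0.14, limma adjusted p = 0.000368). Its direct neighbour on chromosome 18, Pcdhb21, had a log2 fold change of 0.54 (SE 0.18, limma adjusted p = 0.0821). With PLIER Pcdhb21 was 1.20 and called higher, which made 4 protocadherin genes called higher with that summary, beside 1455 of all 31042 probe sets. Other genes of the array did not share 1 direction. Pcdhb17 had 24.8, 18.6 and 25 in Colony cells and 38.2, 33.5 and 50.1 in A16 cells, with a log2 fold change of -0.87 (SE 0.19, limma adjusted p = 0.0186). Pcdhb12 had 0.61 (limma adjusted p = 0.0187) on 1 probe set and 0.17 on the other, and Pcdhb6, Pcdhb9 and Pcdhb19 had 0.15, 0.10 and 0.30. The members cover 7 of the 22 Pcdhb genes in the RefSeq table. These genes are close in sequence, so that a probe set may also read the transcripts of a neighbour. Of the alpha genes, Pcdha13 had 46.7, 56.1 and 48.1 in Colony cells and 87.7, 85.2 and 79.0 in A16 cells (log2 fold change -0.74, SE 0.13, limma adjusted p = 0.00859), and Pcdha12 had a log2 fold change of 0.02.

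The 4 probe sets with several symbols read alpha or gamma transcripts as a group, since the variable exons of these clusters are joined to shared last exons. On all 4 the Colony arrays lay below the A16 arrays. Over all probe sets 45.9% had the groups apart in 1 direction or the other. A gamma probe set with 14 symbols (1382943_at) had 131, 77.6 and 88.6 in Colony cells and 294, 200 and 659 in A16 cells, and was 4.22-fold lower in Colony cells (log2 fold change -2.08, SE 0.42, limma adjusted p = 0.0128). A16 replicate 2 was by far the highest value; without it the log2 fold change was -1.36, and without Colony replicate 2 it was -1.98 and no longer called. The other gamma probe set, with 13 symbols, was bright: 1800, 1480 and 1220 in Colony cells and 2020, 1870 and 2440 in A16 cells (log2 fold change -0.63, SE 0.19, limma adjusted p = 0.0595). An alpha probe set with 15 symbols (1390821_at) had 191, 199 and 169 in Colony cells and 315, 303 and 280 in A16 cells (log2 fold change -0.70, SE 0.14, limma adjusted p = 0.014). The second alpha probe set (1393149_at) gave -0.44 (SE 0.18, limma adjusted p = 0.135).

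**Figure D3:**
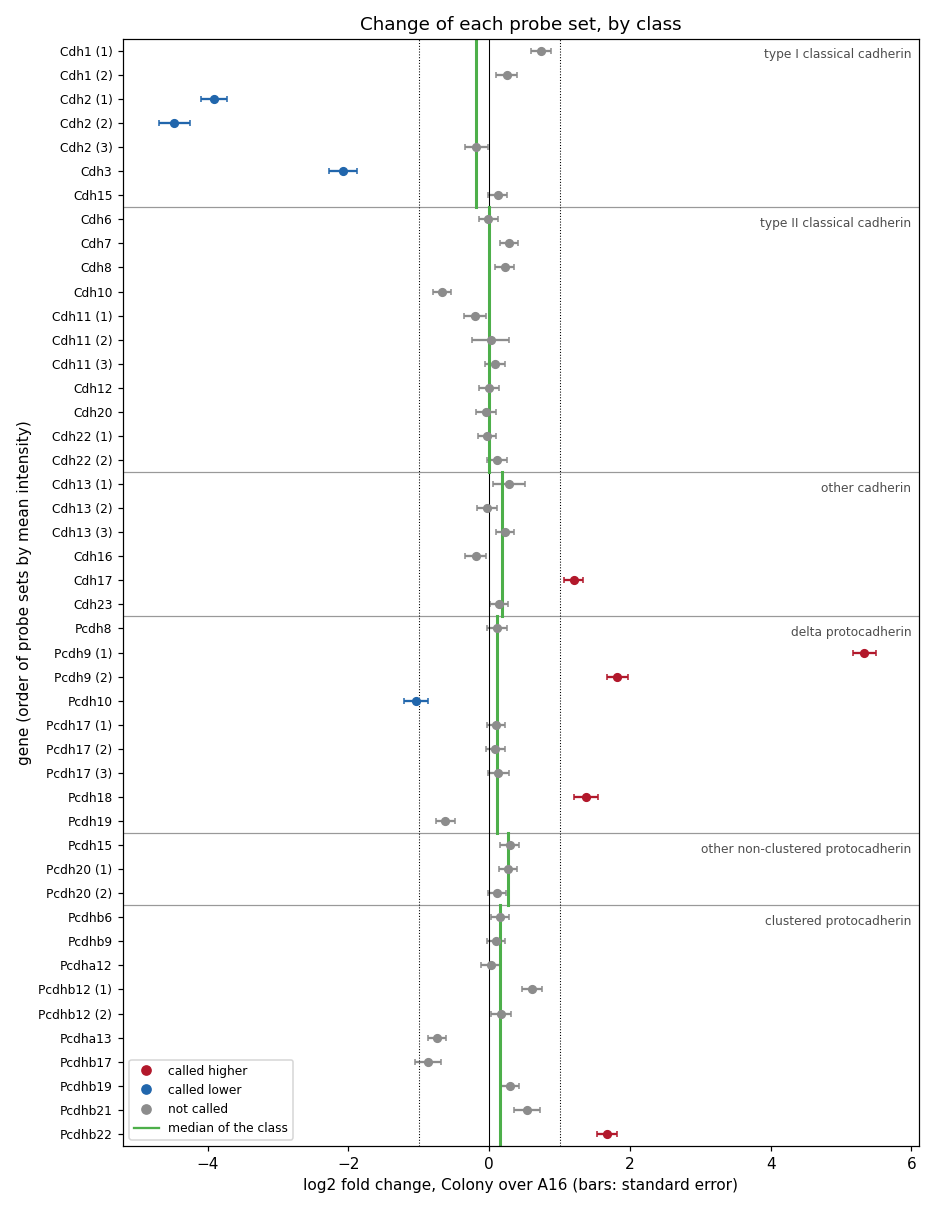
Log2 fold change, Colony over A16 (x axis; bars are the standard error, n = 2 cultures per group), of the 46 member probe sets (y axis, by class), with called probe sets coloured, the class median as a green line and dotted lines at a fold change of 2. The called type I probe sets lie to the left, those of Pcdh9, Pcdh18, Pcdhb22 and Cdh17 to the right, and the class medians over probe sets lie between -0.18 and 0.27.

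Classical cadherins and protocadherins were set side by side as a description, because genes of a class are not replicates and no test of the difference between classes was made. Of 18 classical probe sets 0 were called higher and 3 lower (16.7% in all). Of 22 protocadherin probe sets 4 were called higher and 1 lower (22.7% in all), against 9.81% of all probe sets. By the brightest probe set of each gene, 0 of 12 classical genes were called higher and 2 lower (16.7% in all). Of 17 protocadherin genes 3 were called higher and 1 lower (23.5% in all), against 9.12% of all genes. The bulk of both classes stood near 0: the median log2 fold change was -0.02 over classical genes and 0.15 over protocadherin genes, against 0.05 over all 14217 genes. The calls in both classes thus came from a few genes, Cdh2 and Cdh3 on 1 side and Pcdh9, Pcdh18, Pcdhb22 and Pcdh10 on the other. Among these 6 genes Pcdh10 alone came under the fold threshold with some other settings, which left 0 protocadherin genes called lower. The counts leave out the 4 probe sets with several protocadherin symbols. All 4 were lower in Colony cells, with log2 fold changes of -2.08 to -0.44, and the gamma probe set 1382943_at was called.

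**Figure D4:**
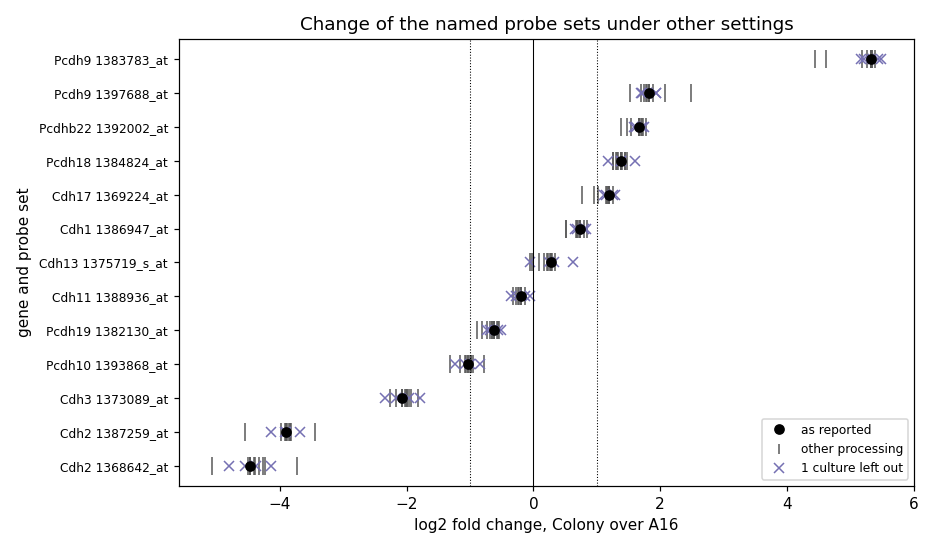
Log2 fold change, Colony over A16 (x axis), of the called member probe sets and of the brightest probe sets of Cdh1, Cdh11, Cdh13 and Pcdh19 (y axis) as reported (black), with other processing (grey bars) and with 1 culture left out (purple crosses). Dotted lines mark a fold change of 2; Pcdh10 and Cdh17 cross them, while Cdh2, Cdh3, Pcdh9, Pcdh18 and Pcdhb22 stay beyond them.

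The proteins that hold classical cadherin tails were then read from a list of catenins and their relatives. Of 12 measured genes 2 were called higher and 2 lower, against 4.36% and 4.75% of all genes. The median log2 fold change of the list was -0.03. The core catenins were bright in both groups. Ctnnb1 (beta-catenin) had 3650, 6240 and 8720 in Colony cells and 6860, 7700 and 7730 in A16 cells, with a log2 fold change of -0.22 (SE 0.27, limma adjusted p = 0.642). The Colony arrays differed more among themselves than the groups did. Ctnna1 (alpha-catenin) had a log2 fold change of 0.01 (limma adjusted p = 0.981), and Ctnnd1 (p120-catenin) -0.76 (limma adjusted p = 0.0579). Ctnnd2, the delta-catenin of neurons, was 6.93-fold higher in Colony cells, with 329, 329 and 308 in Colony cells and 46.8, 47.0 and 45.0 in A16 cells (limma adjusted p = 3.81e-05). Plakoglobin (Jup), which joins both adherens junctions and desmosomes, was 3.48-fold lower, with 117, 91.8 and 95.6 in Colony cells and 286, 326 and 392 in A16 cells (limma adjusted p = 0.000548). Plakophilin 2 (Pkp2) of desmosomes was 6.71-fold lower, with 40.3, 32.7 and 38.3 in Colony cells and 248, 244 and 254 in A16 cells (limma adjusted p = 3.91e-05). With PLIER the log2 fold changes of Jup and Pkp2 were -3.15 and -3.38. Plakophilin 4 (Pkp4) was called higher on its brightest probe set (log2 fold change 1.01, limma adjusted p = 0.00267) and lower on its other one (-1.69, limma adjusted p = 0.00375), so that no direction was taken for it.

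Of 18 other genes of the cadherin superfamily, such as the Fat, Celsr and desmosomal cadherins, 0 were called in either direction by limma, against 9.12% of all genes. Of these 18, 4 had an unadjusted limma p under 0.05, against 5021 of all 14217 genes, and the median log2 fold change was 0. Dsg2, a desmosomal cadherin, passed the p threshold but not the fold threshold (log2 fold change -0.79, limma adjusted p = 0.00662). Of 14 junction partners 1 was called higher and 1 lower, against 4.36% and 4.75% of all genes. Nectin-2 (Nectin2), an adhesion receptor of the immunoglobulin family, had 135, 137 and 112 in Colony cells and 354, 462 and 437 in A16 cells (log2 fold change -1.77, limma adjusted p = 0.000419); its other probe sets gave -1.02 and 0.07, and the mean over all of them -0.91, not called. Vinculin (Vcl), the partner called higher on its brightest probe set, had called probe sets in opposite directions, with log2 fold changes of 1.07 and -1.01. Of 4 cadherin-cleaving proteases and related genes Adam15 was called, with 239, 221 and 166 in Colony cells and 96.1, 109 and 92.4 in A16 cells (log2 fold change 1.01, limma adjusted p = 0.00911). It came under the fold threshold without Colony replicate 1 (0.77) and without A16 replicate 2 (0.93). Adam10, the main sheddase of Cdh1 and Cdh2, had a log2 fold change of -0.17 (limma adjusted p = 0.466).

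Of 7 measured repressors of Cdh1 transcription, 2 were called higher and 2 lower in Colony cells, against 4.36% and 4.75% of all genes. Zeb1 was 2.97-fold higher, with 1700, 2340 and 2220 in Colony cells and 713, 740 and 689 in A16 cells (limma adjusted p = 0.000436). Twist2 was 2.07-fold higher, with 632, 586 and 643 in Colony cells and 237, 350 and 316 in A16 cells (limma adjusted p = 0.00211); without A16 replicate 1 its log2 fold change was 0.98 and not called. These repressors thus did not share 1 direction, since the other 2 were lower. Snai1 was 3.06-fold lower, with 233, 240 and 191 in Colony cells and 573, 668 and 682 in A16 cells (limma adjusted p = 0.000719). Tcf3 was 2.77-fold lower, with 123, 114 and 88.7 in Colony cells and 195, 257 and 359 in A16 cells (limma adjusted p = 0.00709).

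**Figure D5:**
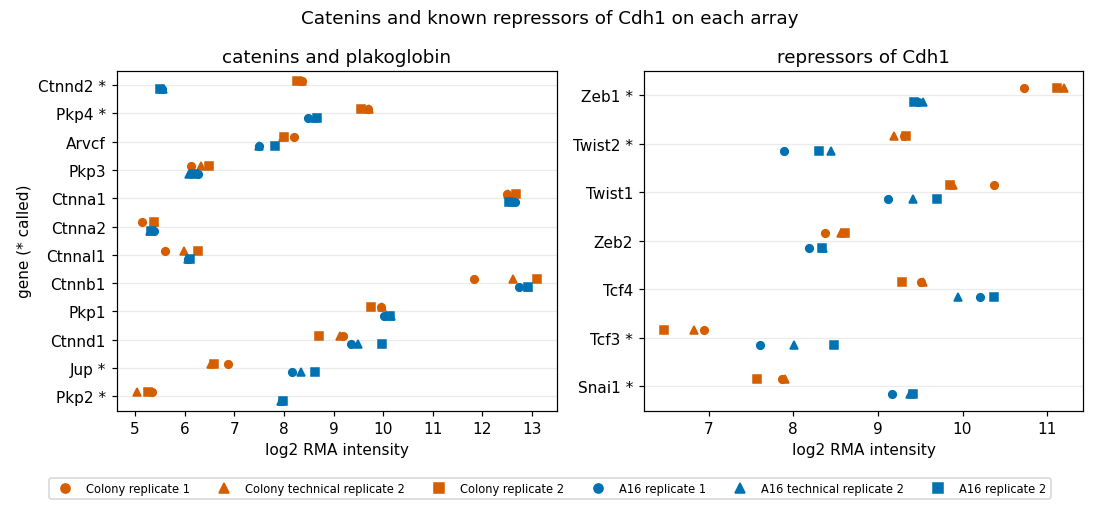
Log2 RMA intensity (x axis) of catenins and their relatives (left) and of known repressors of Cdh1 (right) on each Colony array (orange) and A16 array (blue), each gene by its brightest probe set and ordered by log2 fold change; an asterisk marks a called gene. Ctnnd2, Zeb1 and Twist2 are higher and Pkp2, Jup, Snai1 and Tcf3 lower in Colony cells, while Ctnna1 and Ctnnb1 overlap. Pkp4 is marked although its probe sets were called in opposite directions.

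Marker lists of cell types were read beside these results. Over all 14217 genes 4.36% were called higher and 4.75% lower. Vim, the intermediate filament of mesenchymal cells, was bright in all 6 arrays, with 23700, 22400 and 21400 in Colony cells and 19000, 19000 and 20800 in A16 cells. Of 12 fibroblast markers 4 were called lower, Col1a1, Col3a1, Thy1 and Fbln1, and the summed RMA intensity of the list was 56200 to 60800 on Colony arrays and 73100 to 83800 on A16 arrays. Of 11 epithelial markers only Krt8 was called, at 3670, 3430 and 2890 in Colony cells and 672, 669 and 794 in A16 cells. The list summed to 3380 to 4120 on Colony arrays and 1120 to 1230 on A16 arrays. Krt8 made up most of these sums, and the median log2 fold change of the list was 0.03. Epcam, a defining epithelial marker, was dim at 21.9 to 22.9 in Colony cells and 22.6 to 26.4 in A16 cells. Of 10 macrophage and leukocyte markers only Csf1r was called, at 824, 620 and 538 in Colony cells and 44.9, 41.3 and 34.4 in A16 cells. The list summed to 1720 to 1810 on Colony arrays and 1320 to 1500 on A16 arrays. Csf1r carried the higher Colony sum, and the median log2 fold change of the list was 0.15. Cd14 was lower, with 534, 664 and 697 in Colony cells and 1020, 1000 and 891 in A16 cells (limma adjusted p = 0.0366, not called). Ptprc was dim at 36.8 to 42.2 in Colony cells and 34.7 to 38.4 in A16 cells. The endothelial (8 genes), neural and Schwann cell (9 genes) and skeletal muscle (7 genes) lists had 0 called genes by limma, with 2, 1 and 1 genes at an unadjusted p under 0.05, against 5021 of all 14217 genes. Their summed intensities were 382 to 430 on Colony arrays and 335 to 399 on A16 arrays for endothelial markers. They were 1350 to 1710 on Colony arrays and 1390 to 1570 on A16 arrays for neural markers, and 749 to 784 on Colony arrays and 702 to 802 on A16 arrays for muscle markers. The part of these markers in the changes of cadherins and protocadherins was not tested.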

How the data were processed

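Total RNA of F111 Colony and A16 cells was labelled with biotin and hybridised to 6 Affymetrix rat arrays, 3 per group. The authors made an RMA and a PLIER summary of each array and deposited both as linear intensity, with no log taken. Versions of RMA and PLIER were not found in the labels or methods. The lowest and highest RMA intensities were 11.6 and 25775, and the lowest PLIER intensity was 16. RMA takes background out with a model over all probes, so low intensities are compressed.

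The table held 31099 probe sets, from which 57 controls were removed. The other 31042 were fitted on log2 of the RMA intensity, with nothing added and no filter, using lmFit and eBayes (limma 3.58.1, R 4.3.3; 4.76 prior degrees of freedom), after technical replicate 2 of each group had been averaged with replicate 1. Adjusted p-values come from limma with Benjamini-Hochberg adjustment over all tested probe sets, with 2 exceptions. The mean over the probe sets of a gene was adjusted over genes, and the intensity filter over the probe sets it kept. A call also needed a fold change over 2. Arrays have no count depth, and their number limits the precision. Between arrays of 1 group the log2 differences over all probe sets had an SD of 0.174 to 0.331, and between groups of 0.673 to 0.762. No scan date or slide was given, so no array batch was tested.

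The annotation gives 1 gene symbol to 20826 of them, several to 436 and none to 9780; symbols were updated through the gene identifier for 20758 with the RefSeq table of GRCr8, from which chromosome and gene order were also taken (31 of 33 member genes found). The text names every member gene with a called probe set, Cdh1, Cdh2, Cdh3, Cdh5, Cdh11, Cdh13 and Pcdh9, the 3 brightest member genes and up to 4 called genes of each partner list; other members are given for completeness. Members and lists were chosen with earlier results of these data known. Alternatives were PLIER, a constant of 16 added, other uses of the technical arrays, a replicate block, leaving out probe sets below the median intensity, other scalings, each culture left out, and the mean over the probe sets of a gene. Figures were drawn with Python 3.11.15 and matplotlib 3.10.9. NA16 and tumour arrays were not used here.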

Additional observations from a re-analysis of the deposited data

How the results depend on the processing

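Colony and A16 share replicate numbers in the labels but nothing says that these mark a shared day or culture. With the replicate number as a block, 1254 probe sets were called higher and 1867 lower in Colony cells (1242 and 1803 without the block), 5 and 4 of them members; replicate differences correlated at -0.148 between groups, and the crossed pairing, chosen after seeing the data, called 1256 and 1879. The block changed no call of a member or partner gene. With 1 culture left out, 1282 to 1328 probe sets were called higher and 1498 to 2318 lower, and 5 and 3 to 5 members.

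Without probe sets below the median intensity, 2 members were called higher and 2 lower. Of all probe sets kept, 971 were called higher and 1481 lower, while 39 of 46 member probe sets had been taken out. The filter took out 9 of 12 classical and 14 of 17 protocadherin genes. Class medians of log2 fold change over the few genes left were -2.07 (the value of Cdh3) and 1.38 (that of Pcdh18). Cdh2 and Pcdh9 passed the filter through the group in which they were high. The mean of their other group stood at percentile 22.7 (Cdh2, Colony) and 8.75 (Pcdh9, A16). No class difference was read from these medians. The classical median was -0.09 with PLIER as log2(value). The protocadherin median was 0.09 with RMA as log2(value + 16), 0.10 with technical arrays averaged with replicate 2, 0.21 centred on the 1000 brightest probe sets and 0.15 to 0.21 with 1 culture left out. Of all probe sets PLIER called 2233 lower, and 1913 with 16 added. Protocadherin genes called lower numbered 2 with PLIER, also with 16 added, as Pcdha13 (-1.28, and -1.0 with 16 added) was called beside Pcdh10. They numbered 0 with RMA as log2(value + 16), 6 separate arrays, technical arrays averaged with replicate 2, the culture as a random block, the filter on dim probe sets and centring, and 0 to 2 with 1 culture left out, 0 being without Colony replicate 2 and 2 without A16 replicate 1. Partner genes called higher numbered 3 to 6 with 1 culture left out, 3 without Colony replicate 1 or A16 replicate 1, and 8 were called lower by the mean over probe sets.

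By brightest probe set 6 partner genes over all lists were called higher and 5 lower. By the mean over probe sets 4 were called higher and 8 lower, so that lower calls then outnumbered higher ones. Over the mean of their probe sets Pkp4 and Vcl turned to -0.34 and -0.35. With PLIER, Cdh10 was 0.22 (-0.67 with RMA) and Pcdhb21 gained a call (1.20). Pcdh17 probe set 1384509_s_at, not called in RMA, was -1.56 with PLIER and -1.41 with PLIER after adding 16. The cause of these changes was not tested. Called members that lost the fold threshold were Pcdh10 (in 6 alternatives, -0.78 to -1.0) and Cdh17 (0.77 and 0.95 with 16 added to PLIER or RMA). Of all values for single probe sets under these alternatives, 950 kept their call or lack of a call, 22 lost the call and 4 gained it. A further 4 turned round with a call before or after. Most of these probe sets were not called, and turns between uncalled values, as for Cdh10, are among the 950.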
